A study of Homo sapiens with 4 samples.

Results

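The genes described here encode the TRAIL and Fas death receptor pathway: the ligand TNFSF10, the TRAIL receptors TNFRSF10A, TNFRSF10B, TNFRSF10C and TNFRSF10D, the receptor FAS, the adaptor FADD, the initiator caspases CASP8 and CASP10, and their inhibitory relative CFLAR. The 10 members were taken by symbol from the 58812 Ensembl genes of the deposited tables, and all 10 were found and had enough reads to be tested. RNA was measured in A549, a human lung carcinoma epithelial line, 24 hr after transfection with 1 µg of plasmid. In the SAMD9 group (2 libraries) the plasmid was SAMD9-Myc-DDK, which encodes tagged SAMD9, an interferon-inducible antiviral protein, and in the empty vector group (2 libraries) it was pCMV6-Entry without an insert. All cultures were wild-type A549 and all were transfected, so a culture that received no plasmid at all was not part of the comparison. The labels do not give the share of cells that took up the plasmid.

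Death receptors of the TNF receptor superfamily start apoptosis from the cell surface. TRAIL binds TNFRSF10A and TNFRSF10B, and Fas ligand binds FAS. The cytoplasmic death domains of these receptors then recruit FADD, which brings caspase-8 or caspase-10 molecules together so that they activate one another, and the caspase-like CFLAR protein (c-FLIP) competes for the same sites. TNFRSF10C lacks a cytoplasmic domain and TNFRSF10D has a truncated death domain, so both bind TRAIL without passing on the death signal and are known as decoy receptors. TNFSF10 is a known interferon-stimulated gene.

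With SAMD9, the ligand, both signalling TRAIL receptors, FAS, both initiator caspases and CFLAR rose, while the decoy receptors and the adaptor did not pass the test. That is 7 of 10 members called higher and 0 called lower, against 15.3% of all 19814 genes tested called higher and 12.2% called lower (27.5% in either direction). The members were chosen with earlier results of these data known, so this comparison describes them and is not a test of the set. A gene was called where its p from the edgeR quasi-likelihood test, adjusted over all genes tested by the Benjamini-Hochberg method, was below 0.05. The median log2 fold change of the members was 1.02, against -0.01 over all genes tested. Both SAMD9 libraries lay above both empty vector libraries for 8 members, as they did for 31.1% of all genes tested. The 7 calls were also made under each of the 10 alternative analyses that were run, including each one with a library left out.

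Library totals were between 29301854 and 39670083 counts. SAMD9 itself had 220123 and 184350 counts in the SAMD9 libraries, against 444 and 400 in the empty vector libraries. Of the markers of other cell types that express death ligands, the leukocyte genes CD3D, CD2 and MS4A1 had 0 counts in all 4 libraries. The 9 leukocyte markers together summed to 6.67 to 6.68 CPM in the SAMD9 libraries and 5.59 to 5.82 CPM in the empty vector libraries. Of the 2 testable markers 0 were called, too few to set beside the 27.5% called over all genes tested. Those 2 were CD14, with 99 and 60 counts with SAMD9 against 88 and 67 with empty vector, and ITGAM, with 142 and 122 against 90 and 118. The 4 endothelial markers summed to less than 1 CPM in every library. Of the 5 fibroblast markers, DCN had 0 counts throughout and COL1A1 rose, with sums of 6.11 CPM in both SAMD9 libraries and 1.73 to 2.48 CPM in the empty vector libraries, and its part in the results was not tested. Of the 6 epithelial markers, 5 could be tested and 2 were called higher, beside 15.3% of all genes tested. They were KRT8 with a log2 fold change of 0.40 (SE 0.05) and CDH1 with 0.89 (SE 0.08). EPCAM (-0.20), KRT18 (0.14) and CLDN4 (0.56) were not called, and KRT19, with at most 10 counts in any library, could not be tested. Together the 6 summed to 6001 to 6299 CPM in the SAMD9 libraries and 4616 to 5104 CPM in the empty vector libraries, and their part in the results was not tested. Because the RNA is from bulk cultures, a change in all cells and a larger change in the transfected ones cannot be told apart. Whether the replicates came from separate cultures is not stated in the labels, and the p-values speak of the spread among these libraries alone, which may be technical.

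**Figure D1:**
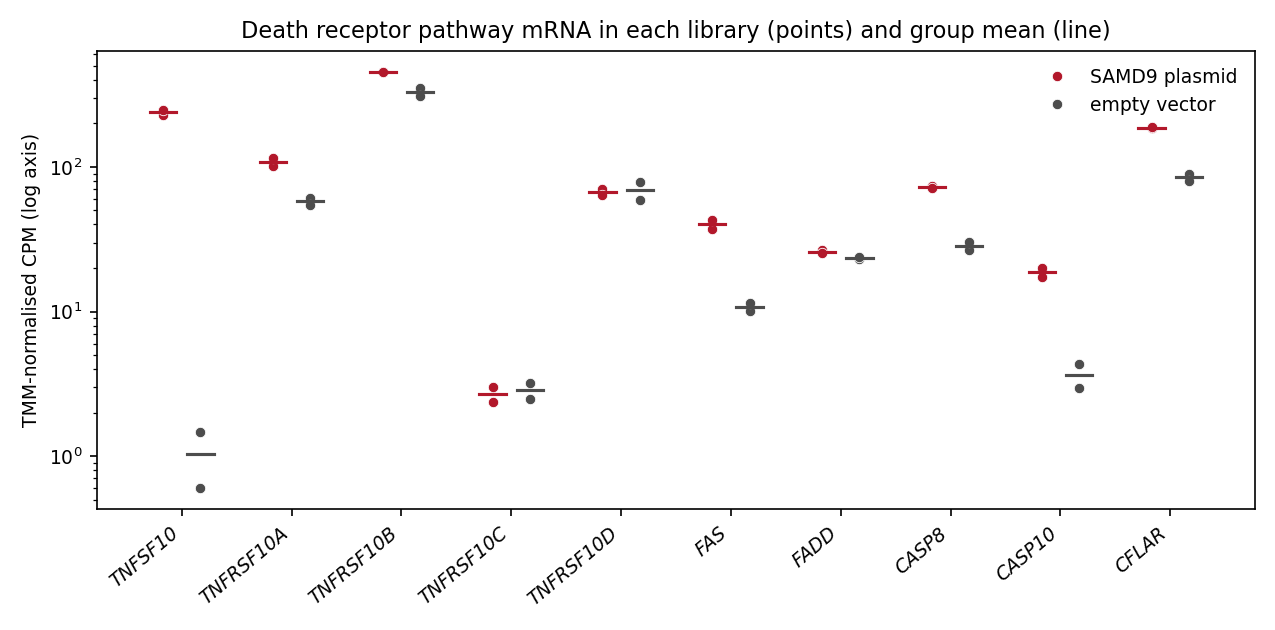
TMM-normalised CPM (log axis) of the 10 members in each library (points), with the group mean (line), SAMD9 in red and empty vector in grey. TNFSF10 stands at 230.0 and 248 CPM with SAMD9 against 1.47 and 0.598 CPM with empty vector, whereas the points of TNFRSF10C and TNFRSF10D overlap between the groups.

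TNFSF10 (ENSG00000121858, chromosome 3, 172505508 to 172523507, minus strand, GRCh38), which encodes the death ligand TRAIL, showed by far the largest difference of the members. It had 8577 and 7101 counts in the SAMD9 libraries, against 46 and 20 in the empty vector libraries. In TMM-normalised CPM (counts scaled to a common library size), that is 239 ± 12.7 with SAMD9 and 1.03 ± 0.617 with empty vector (SD, n = 2 each). The SAMD9 libraries agreed closely, and the empty vector libraries differed from each other more than 2-fold at this low level. The log2 fold change was 7.87 (standard error, SE, 0.15, and edgeR adjusted p = 1.4e-21), a 233-fold rise with a 95% interval from 189 to 288. Without empty vector replicate 1 the log2 fold change was 8.64, and without empty vector replicate 2 it was 7.34. Only 43 of the 19814 genes tested had a larger log2 fold change.

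The genes whose profile lay nearest to that of TNFSF10 over the 4 libraries, by Euclidean distance of log2 CPM centred on the empty vector mean among 13340 candidates, were APOL3 (distance 0.541), PLEKHA4 (0.561) and IFIT2 (0.591). This distance selects genes with a like difference between the groups, so similar fold changes follow from the choice. APOL3, an apolipoprotein L family gene, had 529 and 544 counts with SAMD9, against 2 and 0 with empty vector. PLEKHA4 had 7620 and 6598 with SAMD9, against 49 and 12 with empty vector. IFIT2, an interferon-induced gene that encodes an RNA-binding antiviral protein, had 209401 and 183548 with SAMD9, against 811 and 494 with empty vector.

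The sequence before the annotated start of TNFSF10 is shown because this gene had the largest change, beside those of CASP8, which rose, and FADD, which was not called. They are the parts of the RefSeq promoter windows (GRCh38.p14; 250 bases before to 50 after a start) that lie before the gene's first exon in the deposited tables. Capitals mark matches to an interferon-stimulated response element (ISRE: GAAA, any 2 bases, GAAA) or a gamma-activated site (GAS: TTC, any 3 bases, GAA), searched on both strands, and FADD has none. All are printed 5′ to 3′ on the gene's own strand.
TNFSF10, chr3:172523508-172523680, minus strand: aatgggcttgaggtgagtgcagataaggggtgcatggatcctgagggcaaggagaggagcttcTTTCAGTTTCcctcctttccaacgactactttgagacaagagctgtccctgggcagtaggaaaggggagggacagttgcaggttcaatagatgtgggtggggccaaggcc
CASP8, chr2:201233213-201233442, plus strand: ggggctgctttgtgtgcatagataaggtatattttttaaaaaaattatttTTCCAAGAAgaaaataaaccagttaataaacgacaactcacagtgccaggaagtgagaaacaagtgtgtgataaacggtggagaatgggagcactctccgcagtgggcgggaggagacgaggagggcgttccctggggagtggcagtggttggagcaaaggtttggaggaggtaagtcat
FADD, chr11:70203046-70203162, plus strand: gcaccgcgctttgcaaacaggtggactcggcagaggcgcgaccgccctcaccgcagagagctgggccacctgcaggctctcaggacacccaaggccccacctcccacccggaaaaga

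The capitals in TNFSF10 are an ISRE match on the opposite strand, which begins 187 bases before the RefSeq start. In the CASP8 stretch the capitals are a GAS match, whose letters read alike on both strands, 200 bases before the start. The same CASP8 window holds an ISRE match, also on the opposite strand, which reads TTTCTGTTTC on the plus strand. This match spans the start itself and lies within the first exon of the deposited table. Over all 35116 RefSeq windows of the same length, 3.57% hold an ISRE match and 7.66% a GAS match. RefSeq windows were found for 5 members (12 windows in all: 1 each for TNFSF10 and FADD, 3 each for FAS and CASP8, and 4 for CFLAR). An ISRE match was in 1 TNFSF10 window and 1 CASP8 window, and a match to the NF-kB consensus, which 5.91% of all windows hold, in 1 FAS window (GGGGGACCCC) and 1 CFLAR window (GGGGAATTCC). No window of FAS or CFLAR, which also rose, held an ISRE or GAS match, and of the CASP8 windows only the printed one did. A match describes letters and not a bound site.

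The signalling TRAIL receptors rose by smaller factors than their ligand. TNFRSF10A (DR4; ENSG00000104689, chromosome 8, 23190452 to 23225126) had 3763 and 3278 counts with SAMD9, against 1920 and 1815 with empty vector. Its level was 108 ± 9.61 CPM with SAMD9 and 57.8 ± 5.04 CPM with empty vector (SD, n = 2 each), a log2 fold change of 0.90 with an SE of 0.08 (edgeR adjusted p = 6.9e-09). Of the TNFRSF10A transcript 31-mers, 17.2% also occur in other annotated genes, in a search that disregarded strand. Its exons share 266 bases with TNFRSF10A-DT and 224 with TNFRSF10A-AS1 on the opposite strand, which this percentage can include. TNFRSF10B (DR5; ENSG00000120889, chromosome 8, 23020133 to 23069179), also a target of p53, had 17027 and 13048 counts with SAMD9, against 11055 and 10425 with empty vector. Its level was 456 ± 0.598 CPM with SAMD9 and 332 ± 29.6 CPM with empty vector, a log2 fold change of 0.46 with an SE of 0.06 (edgeR adjusted p = 4.4e-06). For both receptors the SAMD9 libraries lay above the empty vector libraries. Under total-count scaling, which shifted the median log2 fold change by -0.19, TNFRSF10A stood at 0.71 and TNFRSF10B at 0.27, and both were still called.

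The decoy receptors were not called. TNFRSF10D (DcR2; ENSG00000173530, chromosome 8, 23135588 to 23164030) had 2612 and 1840 counts with SAMD9, against 2444 and 1992 with empty vector, or 67.2 ± 4.08 CPM with SAMD9 and 68.8 ± 13.1 CPM with empty vector (SD, n = 2 each). The groups overlapped, and the log2 fold change of -0.03 (95% interval from -0.23 to 0.17, edgeR adjusted p = 0.85) changed sign to 0.18 without empty vector replicate 1 and to 0.03 without SAMD9 replicate 2. Without empty vector replicate 2 it was -0.21 and was called lower (adjusted p = 0.041). TNFRSF10C (DcR1; ENSG00000173535, chromosome 8, 23084355 to 23117437) was scarce, with 112 and 68 counts in the SAMD9 libraries and 78 and 107 in the empty vector libraries. Its log2 fold change of -0.08 has a 95% interval from -0.64 to 0.49 (edgeR adjusted p = 0.88), and it became 0.08 without SAMD9 replicate 2 and 0.12 without empty vector replicate 2. At this depth a change of TNFRSF10C smaller than that interval was not detectable. Of its transcript 31-mers, 38.3% also occur in other annotated genes on either strand.

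Compared per length, the 4 TRAIL receptor mRNAs shifted toward the signalling pair. The summed counts per kilobase of TNFRSF10A and TNFRSF10B were 5.86 and 6.67 times those of TNFRSF10C and TNFRSF10D in the SAMD9 libraries, against 3.88 and 4.37 times in the empty vector libraries. The groups did not overlap, and the mean log2 ratio differed by 0.60 with a spread between replicates of 0.13 (SD). With 2 libraries against 2, an exact two-sided permutation test of a single ratio cannot give a p below 0.333, so these ratios carry no test. TNFRSF10A made up 23.8% and 26.5% of the 4 receptors per kilobase with SAMD9, against 18.5% and 19.0% with empty vector. TNFRSF10D made up 13.8% and 12.4% with SAMD9, against 19.7% and 17.4% with empty vector. TNFRSF10B was the main receptor throughout, at 61.6% and 60.4% with SAMD9 and 61.0% and 62.4% with empty vector.

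**Figure D2:**
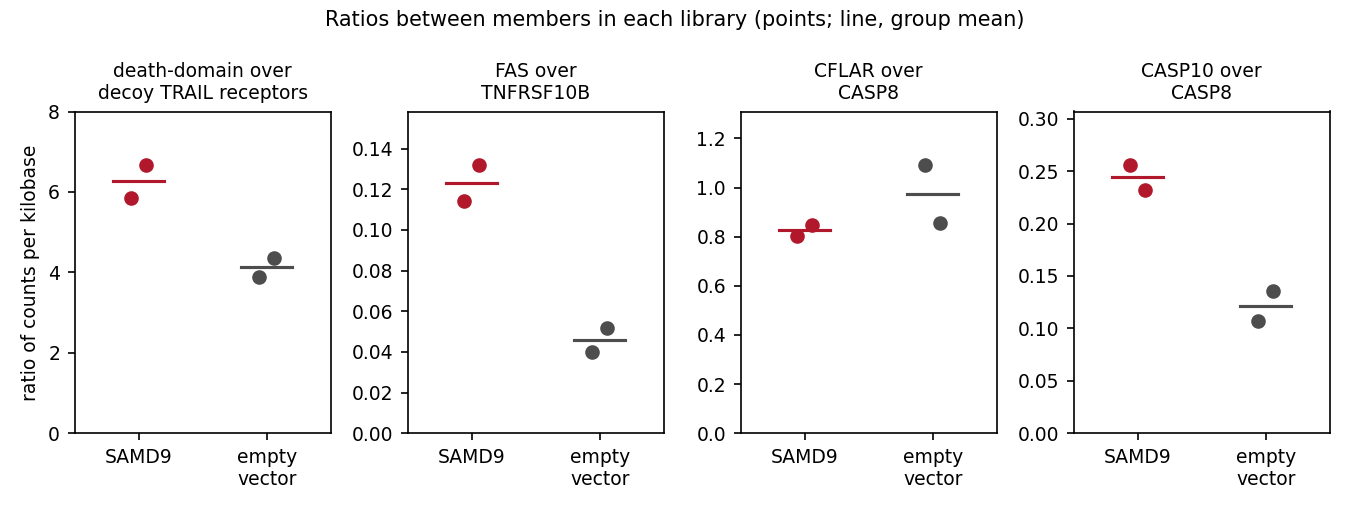
Ratios of counts per kilobase between members in each library (points; line, group mean), SAMD9 left and empty vector right, with every axis starting at 0. The death-domain to decoy ratio is 5.86 and 6.67 with SAMD9 against 3.88 and 4.37 with empty vector, and the CFLAR to CASP8 ratio is 0.804 and 0.847 with SAMD9 against 1.09 and 0.857 with empty vector.

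FAS (ENSG00000026103, chromosome 10, 88990531 to 89015785, plus strand), which encodes the receptor of Fas ligand, had a larger log2 fold change than any TRAIL receptor. It had 1388 and 1230 counts with SAMD9, against 316 and 384 with empty vector, or 40.1 ± 4.06 CPM with SAMD9 and 10.8 ± 0.972 CPM with empty vector (SD, n = 2 each). The groups were well apart, with a log2 fold change of 1.89 with an SE of 0.12 (edgeR adjusted p = 8.0e-12). Its ratio to TNFRSF10B per kilobase was 0.114 and 0.132 with SAMD9, against 0.0400 and 0.0515 with empty vector. The gene of its ligand, FASLG, had 0 counts in all 4 libraries. FAS shares 431 exonic bases with ACTA2 on the opposite strand, and ACTA2 had 145 and 134 counts with SAMD9 against 116 and 118 with empty vector (log2 fold change 0.24, SE 0.22, edgeR adjusted p = 0.49).

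The nearest profiles to that of FAS were those of JUNB (distance 0.071), an AP-1 transcription factor gene, PSME1 (0.092), a proteasome activator subunit gene, and NOD1 (0.092), which encodes a sensor of bacterial cell wall fragments. Their log2 fold changes, near that of FAS by the way they were chosen, were 1.86 for JUNB, 1.93 for PSME1 and 1.89 for NOD1.

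The adaptor FADD (ENSG00000168040, chromosome 11, 70203163 to 70207390) was not called. It had 997 and 722 counts with SAMD9, against 722 and 803 with empty vector, or 26.0 ± 1.07 CPM with SAMD9 and 23.5 ± 0.649 CPM with empty vector (SD, n = 2 each). Its normalised level was slightly higher in both SAMD9 libraries, but the log2 fold change of 0.14 with an SE of 0.10 (edgeR adjusted p = 0.35) had a 95% interval from -0.07 to 0.36. Under total-count scaling the sign turned, to -0.045. The FADD exons share 1011 bases with a gene on the opposite strand that had 0 counts in every library. Of the FADD transcript 31-mers, 52.6% also occur in other annotated genes, the highest share among the members. The search disregarded strand, so this share can include the bases of the overlapping gene and need not be a separate limit. The effect of these shared bases on the level of FADD, also per kilobase, was not tested.

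**Figure D3:**
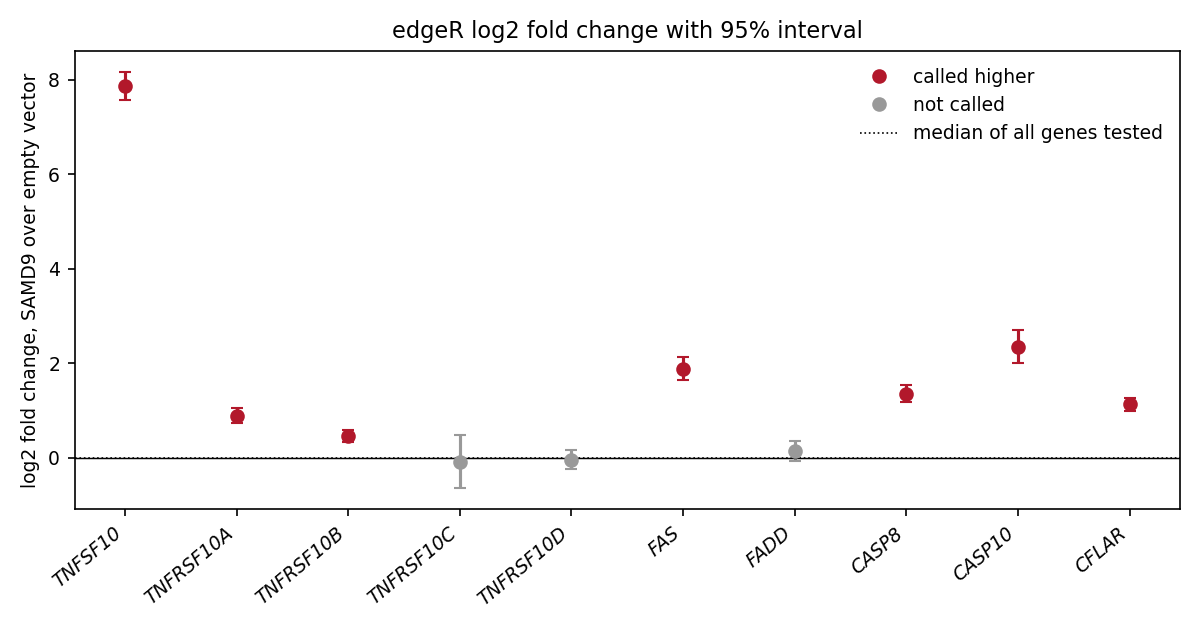
edgeR log2 fold change of each member, SAMD9 over empty vector, with its 95% interval (bars), red where called higher and grey where not called. TNFSF10 lies at 7.87, the called receptors, caspases and CFLAR lie between 0.46 and 2.36, and the intervals of TNFRSF10C, TNFRSF10D and FADD include 0.

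The initiator caspases and their inhibitor lie side by side on chromosome 2, and all 3 rose. CASP8 (ENSG00000064012, 201233443 to 201287711) encodes the caspase that FADD recruits and had 2766 and 2048 counts with SAMD9, against 827 and 1011 with empty vector. Its level was 72.9 ± 1.87 CPM with SAMD9 and 28.3 ± 2.67 CPM with empty vector (SD, n = 2 each), a log2 fold change of 1.36 with an SE of 0.09 (edgeR adjusted p = 1.8e-11). CASP10 (ENSG00000003400, 201182881 to 201229406) encodes a close relative of caspase-8 and had 742 and 499 counts with SAMD9, against 93 and 144 with empty vector. That is 18.7 ± 1.75 CPM with SAMD9 and 3.64 ± 0.941 CPM with empty vector, a log2 fold change of 2.36 with an SE of 0.17 (edgeR adjusted p = 1.6e-10). For both caspases the groups did not overlap. CASP10 stayed the scarcer of the pair, at 0.256 and 0.232 of the CASP8 level per kilobase with SAMD9, against 0.107 and 0.136 with empty vector.

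CFLAR (ENSG00000003402, 201116104 to 201176687), whose product lacks caspase activity and restrains caspase-8, had 6913 and 5398 counts with SAMD9, against 2807 and 2694 with empty vector. Its level was 187 ± 2.24 CPM with SAMD9 and 85.1 ± 6.52 CPM with empty vector (SD, n = 2 each), a log2 fold change of 1.14 with an SE of 0.07 (edgeR adjusted p = 6.8e-12). The 95% interval of this fold change runs from 0.99 to 1.28, and that of CASP8 from 1.18 to 1.54. The CFLAR to CASP8 ratio per kilobase was 0.804 and 0.847 with SAMD9, against 1.09 and 0.857 with empty vector. The SAMD9 values lay below both others, but the mean log2 difference of -0.23 was close to the spread between replicates of 0.18 (SD), and it was -0.05 without empty vector replicate 1. Gene counts do not separate the long and short CFLAR isoforms or the CASP8 isoforms, and the listed exonic length of CFLAR, 22529 bases, sets its level per kilobase. Of its 31-mers, 23.2% occur in other genes on either strand, with IMPDH1 sharing the most. Its exons share 1488 bases with IMPDH1P10 and 771 with CFLAR-AS1 on the opposite strand, which this percentage can include.

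The profiles nearest to CASP8 were those of ZNF710 (distance 0.066), RFX5 (0.067), a transcription factor gene of MHC class II promoters, and SLC12A7 (0.085), a potassium chloride cotransporter gene. RFX5 had 3139 and 2388 counts with SAMD9, against 942 and 1116 with empty vector, and the log2 fold changes were 1.39 for ZNF710 and 1.37 for SLC12A7. Their nearness to that of CASP8 follows from how these genes were chosen.

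Ordered by CPM per kilobase, TNFSF10 was the lowest of the members with empty vector and second only to TNFRSF10B with SAMD9. In the SAMD9 libraries TNFRSF10B stood at 88.4 ± 0.116 CPM per kilobase, TNFSF10 at 68.8 ± 3.67, TNFRSF10A at 36.5 ± 3.26, TNFRSF10D at 19.0 ± 1.15, FADD at 14.1 ± 0.583, FAS at 10.9 ± 1.10, CASP8 at 10.1 ± 0.258, CFLAR at 8.30 ± 0.0994, CASP10 at 2.46 ± 0.230 and TNFRSF10C at 1.02 ± 0.169 (SD, n = 2). Among neighbours in that order, only FAS and CASP8 overlapped between libraries. In the empty vector libraries the order was TNFRSF10B at 64.4 ± 5.73, TNFRSF10A at 19.6 ± 1.71, TNFRSF10D at 19.5 ± 3.72, FADD at 12.8 ± 0.353, CASP8 at 3.91 ± 0.369, CFLAR at 3.78 ± 0.289, FAS at 2.92 ± 0.263, TNFRSF10C at 1.08 ± 0.190, CASP10 at 0.479 ± 0.124 and TNFSF10 at 0.298 ± 0.178 CPM per kilobase. There, TNFRSF10A overlapped TNFRSF10D, CASP8 overlapped CFLAR and CASP10 overlapped TNFSF10.

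Of 18 listed genes that overlap a member or lie between the members on chromosomes 2 and 8, 8 could be tested, of which 2 were called higher and 1 lower, beside 15.3% called higher and 12.2% called lower over all genes tested. TNFRSF10A-DT, a divergent transcript that shares 266 exonic bases with TNFRSF10A on the opposite strand, had 231 and 182 counts with SAMD9 against 133 and 112 with empty vector (log2 fold change 0.73, SE 0.20, edgeR adjusted p = 0.0097). TBPL1P1, a pseudogene inside the TNFSF10 range on the opposite strand with no exonic overlap, had 53 and 22 counts with SAMD9 against 4 and 0 with empty vector (adjusted p = 0.00094). RHOBTB2, whose end shares 67 exonic bases with TNFRSF10B, fell by 0.44 on the log2 scale (SE 0.09, adjusted p = 0.0011). TNFRSF10A-AS1, ACTA2, CFLAR-AS1, CHILL1 and ENSG00000246130 were not called.

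Among 13 other TNF-family death ligands and receptors, 10 could be tested, of which 6 were called higher and 2 lower (median log2 fold change 1.07). Over all genes tested, 15.3% were called higher and 12.2% lower (median -0.01). TNF, the ligand of TNFRSF1A, had 97 and 83 counts with SAMD9 against 10 and 9 with empty vector, and rose by 3.21 (SE 0.43). TNFRSF1B, the TNF receptor without a death domain, had 206 and 173 counts with SAMD9 against 2 and 26 with empty vector, and rose by 3.74 (SE 0.44). TNFSF15, the ligand of the death receptor TNFRSF25, rose by 1.76 (SE 0.18) and LTB, a subunit of membrane lymphotoxin, by 2.20 (SE 0.42) on the log2 scale. The falls, named after their values were seen, were small: TNFRSF1A, the death-domain receptor of TNF, at 222 and 207 CPM with SAMD9 against 231 and 262 CPM with empty vector, and EDA2R at 17.3 and 18.2 CPM with SAMD9 against 25.1 and 21.8 CPM with empty vector. With any 1 library left out, 1 fall was called. TNFRSF11B and TNFRSF6B, soluble decoys of TRAIL and of Fas ligand, had at most 4 counts in any library.

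Of 22 adaptors and regulators of death receptor complexes, 21 could be tested, with 11 called higher and 2 lower (median 0.33). Of all genes tested, 15.3% were called higher and 12.2% lower (median -0.01), a share that the falls in this list did not exceed. TRADD, the adaptor of the TNF receptor, was at 57.1 and 56.1 CPM with SAMD9 against 17.2 and 20.3 CPM with empty vector, a log2 fold change of 1.59 (SE 0.10). RIPK1, the kinase that death receptor complexes use for survival or death signals, was at 75.7 and 72.1 CPM with SAMD9 against 29.1 and 30.2 CPM with empty vector, a log2 fold change of 1.32 (SE 0.08). RBCK1 (HOIL-1), a subunit of the linear ubiquitin ligase, rose by 1.43 (SE 0.06), and TNFAIP3 (A20), a ubiquitin-editing inhibitor of NF-kB, was at 410 and 484 CPM with SAMD9 against 33.6 and 25.0 CPM with empty vector. The falls, named after their values were seen, were CUL3, the scaffold of a ligase that ubiquitinates caspase-8, at -0.40 (SE 0.08), and PIDD1, a death-domain adaptor, at -0.38 (SE 0.09). Under total-count scaling and without SAMD9 replicate 2, 7 of these genes were called higher, and without SAMD9 replicate 1 or SAMD9 replicate 2, 1 was lower.

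All 20 genes listed downstream of the receptors could be tested, and 8 were called higher and 2 lower (median 0.15). The shares over all genes tested were 15.3% higher and 12.2% lower (median -0.01), and the falls here did not exceed theirs. XAF1, an interferon-inducible antagonist of XIAP, was at 157 and 176 CPM with SAMD9 against 0.384 and 0.299 CPM with empty vector, a log2 fold change of 8.92 (SE 0.14). The apoptosis inhibitor genes rose too, BIRC3 (cIAP2) by 2.13 (SE 0.07) and XIAP by 0.77 (SE 0.07). BIRC2 (cIAP1), the mitochondrial effector BAK1 and BID, which links caspase-8 to mitochondria, were also called higher, by 0.89, 0.89 and 0.30 on the log2 scale, and are named after their values were seen, as are the falls, BIRC5 (survivin, a mitotic gene) at -0.21 (SE 0.07) and DFFB, the apoptotic nuclease, at -0.65 (SE 0.22). The apoptosome genes, also outside the naming rule given below, were among the 10 genes not called. CASP9 was at -0.22 (SE 0.16), APAF1 at -0.01 (SE 0.10) and cytochrome c, CYCS, at -0.01 (SE 0.06). The number of falls was 7 under total-count scaling, where 5653 of all 19814 genes tested were called lower. It was 1 with DESeq2, where 1650 of 19341 were called lower. It was also smaller than in the main fit when any single library was left out.

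**Figure D4:**
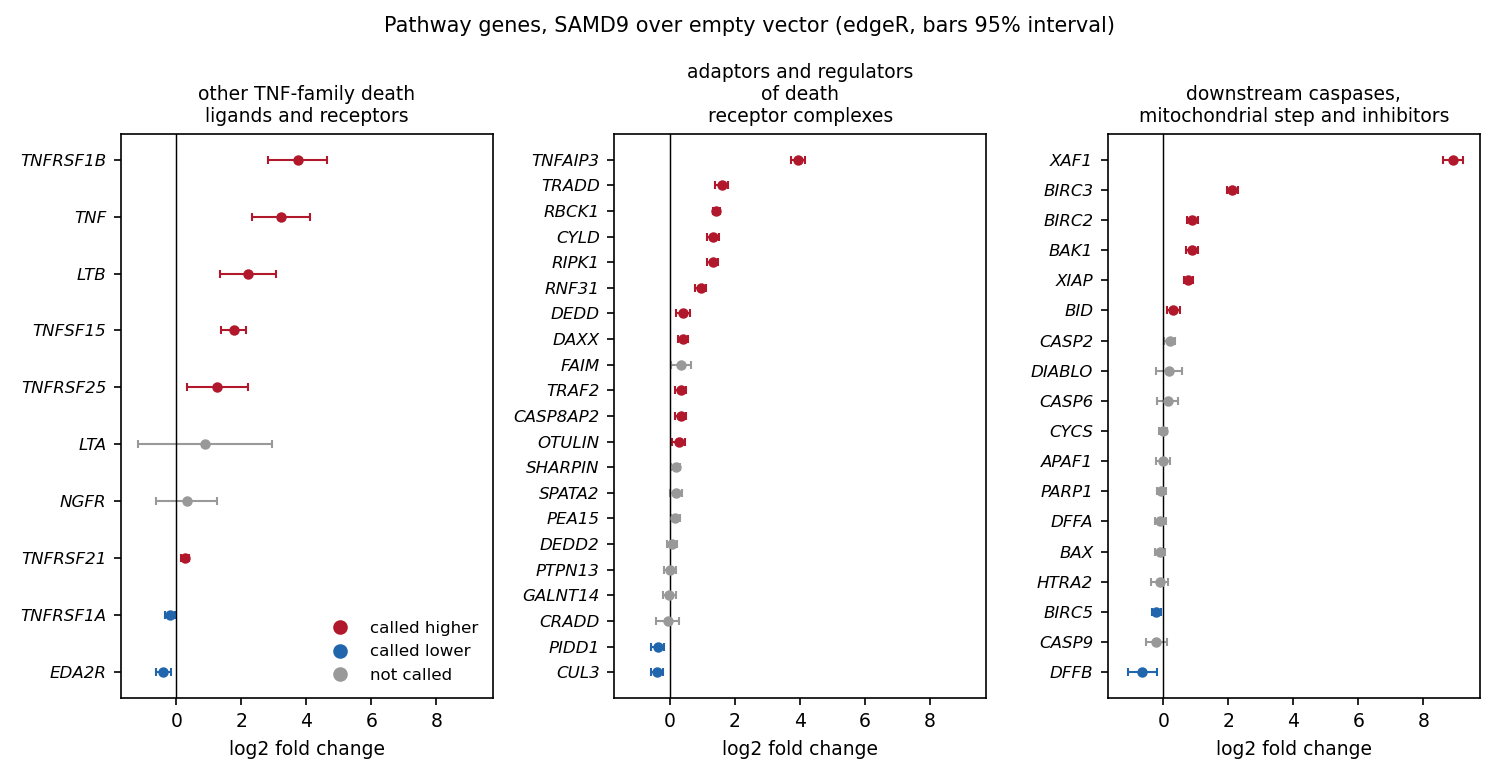
edgeR log2 fold changes, SAMD9 over empty vector, of tested genes in 3 pathway lists, with 95% intervals (bars), red where called higher, blue where called lower and grey where not called. XAF1 at 8.92 and TNFAIP3 at 3.93 lie farthest to the right, and the falls reach -0.65 for DFFB.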

How the data were processed

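Each deposited file gave raw counts per gene for 1 library, with CPM and RPKM that the authors derived from the counts and the listed exonic length. Only counts and lengths were used. The submitters' processing notes name STAR 2.5.1a, featureCounts 1.4.6-p5, bcl2fastq and the build GRCh38. The strand setting is not given in the sources used here, so overlapping genes on opposite strands are treated as inseparable. Even values made up 72.9% of the counts from 1 to 20 and 49.7% of those over 1000. Read mates may have been counted separately, which was not tested, and counts of any size may then be less precise than they look.

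Symbols were looked up by Ensembl ID (93.2% matched). The test was run in edgeR 4.0.16 (R 4.3.3) with filterByExpr (minimum count 10, minimum total 15; 19814 genes), TMM factors from 0.932 to 1.07 and a quasi-likelihood F-test with no covariate. SE is the absolute log2 fold change over the square root of F, and intervals use its t distribution. On simulated data (19252 genes), 93% of changes of 1 and 100% of changes of 2 on the log2 scale were recovered, with 5.39% false calls. The 200 changed genes were drawn only from genes with higher mean counts, and every gene had a dispersion of 0.01. Recovery for low-count genes was therefore not measured. The chi-square per degree of freedom was 5.00 between SAMD9 and 9.35 between empty vector replicates, more than sampling noise gives. Alternatives were RLE factors, total-count scaling, no filter, a stricter filter, DESeq2 1.42.0, the replicate number as a block and leaving out each library.

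The members and lists were chosen with earlier results of these data known. The genes named by rule are the members, the cell type markers, the 4 lowest p-values of each list and the locus neighbours. The rule also names the 3 nearest profiles of TNFSF10, FAS and CASP8 (mean log2 CPM of at least 1). FASLG, TNFRSF11B, TNFRSF6B, CASP9, APAF1, CYCS and the genes marked above as named after their values were seen lie outside this rule. Some genes that the rule names are left out of the text and figures, and are not reported here.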

Additional observations from a re-analysis of the deposited data

How the results depend on the processing

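TNFSF10, TNFRSF10A, TNFRSF10B, FAS, CASP8, CASP10 and CFLAR were called higher in all 10 alternatives. Genes called higher and lower numbered 3038 and 2420, or 55.7% higher among calls, against 1974 and 5653, or 25.9%, under total-count scaling, where the median gene shifted by -0.19. That scaling reversed FADD to -0.045 and left 7 adaptors and regulators higher. It gave 7 of 20 downstream genes lower, beside 5653 of all 19814 genes tested. With DESeq2, 1 downstream gene was lower. Leaving out each library gave 2291 to 3123 genes higher and 1466 to 2279 lower, the fewest without SAMD9 replicate 2. Log2 fold changes then ran from -0.26 to 0.12 for TNFRSF10C (reversed at 0.08 without SAMD9 replicate 2 and 0.12 without empty vector replicate 2) and from -0.21 to 0.18 for TNFRSF10D (reversed at 0.03 without SAMD9 replicate 2 and 0.18 without empty vector replicate 1, and called lower at -0.21 without empty vector replicate 2). They ran from 7.34 to 8.64 for TNFSF10. List counts ran from 7 to 13 adaptors and regulators higher and 1 to 2 lower, 0 to 1 downstream genes lower, and 1 other ligand or receptor lower each time. The cause of these changes was not tested. With the replicate number as a block, 2914 genes were higher and 2330 lower, and no member's call changed. The labels do not say that a number marks a shared culture, and deviations of same-numbered libraries correlated at 0.0042. The ratios kept their sign without any single library (chosen after seeing the data), from -0.40 to -0.05 for CFLAR to CASP8 and 0.51 to 0.70 for death-domain to decoy receptors. Depth limits TNFRSF10C and, in the empty vector libraries, TNFSF10.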
